A study of Mus musculus with 24 samples.

Results

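The circadian output genes are 9 genes that stand next to the core clock of the liver and carry its rhythm to other genes: Dbp, Tef, Hlf, Nfil3, Bhlhe40, Bhlhe41, Usp2, Wee1 and Rora. They were taken by name from 18194 genes on the array, each read through its annotated probe set of highest mean signal (24 arrays). All 9 had a probe set and all 9 were tested. The samples are livers of male B6C3F1 mice, a hybrid strain, 7 to 10 weeks old on arrival. The treated mice received diethylhexylphthalate (DEHP), a plasticiser that acts as a peroxisome proliferator in rodents. The design text gives daily oral gavage for 3 days at 1150 mg/kg/day in 10 ml/kg, with corn oil, the vehicle, in the same volume as the control. Liver was taken at 2, 8, 24 and 72 h, which with both compounds makes 8 groups of 3 arrays. An n of 6 mice is stated, and whether it is per group or in all is not.

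In the molecular clock, Clock and Arntl switch on their own repressors (the Per and Cry genes) by binding E-box letters in promoters, and the nuclear receptors of the Ror and Nr1d families act on Arntl in turn. Dbp, Tef and Hlf are activators of the PAR bZip family, which the clock drives and which bind D-box letters in genes of liver metabolism and detoxification, while Nfil3 binds the same letters as a repressor. Bhlhe40 and Bhlhe41 are repressors that compete at E-boxes, Rora is the activating nuclear receptor, and Usp2, a deubiquitinating enzyme, and Wee1, a kinase that holds back entry into mitosis, are clock-driven genes with other functions.

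The labels give no clock time of dosing or killing and no number of doses before the later samples, so sampling time, time of day and number of doses cannot be told apart. The array titles carry numbers, 1 to 8 for replicate 1 and 9 to 24 for the later replicates, which rise with sampling time within each set. What they stand for is not stated, so any order behind them cannot be told apart from sampling time within a set. Separate animals behind the 3 arrays of each group are not stated either, so p-values measure the spread between these samples, which may be technical. Array medians lay between 6.46 and 6.55 on the log2 scale, and arrays of a group correlated with r of 0.989 to 0.996 over all probe sets. The number of arrays limits the precision. The 7 measured hepatocyte markers were in the top 1% of genes or close to it on mean signal (percentiles from 99.6 to 100), and 4 of 4 measured genes that peroxisome proliferators induce were higher in DEHP livers at 2 h. Corn oil 8 h replicate 2 had an Actb 3' minus 5' difference of 1.46, a sign of RNA quality, against at most 0.82 elsewhere. Corn oil 72 h replicate 1 had a mean of 9.78 over immediate-early genes against at most 7.65 elsewhere. At 8 h, the third corn oil array and the second DEHP array carry the same number, 14, in their titles, but their member signals differed by up to 0.72. The titles hold the numbers 15 and 17 but none between them. In whole liver, fewer cells of a type and less RNA per cell cannot be told apart.

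The promoter table of RefSeq (build GRCm38.p6, windows from 250 bases before to 50 bases after a start) held 8 windows for 7 of the 9 members. Each was searched on both strands for the E-box CACGTG, the D-box letters TTATGTAA or TTACGTAA, and AGGTCA, letters within Ror and Nr1d binding sites. AGGTCA was searched without its flanking letters, so a match does not tell which receptor, if any, binds there. The sequences with a match are shown, and whether these letters bear on the signals was not tested. Between corn oil times Tef and Nfil3 were called in opposite directions. Bhlhe41, with the same E-box letters as Tef, was not called in any comparison. Its mean signal was low, at the 28.3rd percentile of genes. Capitals mark the match, and each sequence is written along the strand of its gene. The first Tef window matched 127 to 122 bases before the start (chr15:81802501-81802596, plus strand), the second 138 to 133 bases before (chr15:81811231-81811326, plus strand), and Bhlhe41 153 to 148 bases before (chr6:145865523-145865618, minus strand). Nfil3 held AGGTCA read on the opposite strand, as TGACCT, 12 to 7 bases before its start (chr13:52981040-52981096, minus strand).
Tef, first window: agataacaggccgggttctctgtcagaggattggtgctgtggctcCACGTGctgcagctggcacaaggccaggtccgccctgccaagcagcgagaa
Tef, second window: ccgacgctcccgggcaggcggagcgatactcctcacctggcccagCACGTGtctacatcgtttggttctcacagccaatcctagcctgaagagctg
Bhlhe41: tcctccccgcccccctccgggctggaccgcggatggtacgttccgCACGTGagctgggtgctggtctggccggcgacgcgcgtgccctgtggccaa
Nfil3: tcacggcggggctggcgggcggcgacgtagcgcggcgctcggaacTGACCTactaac
Of 32851 windows of 300 bases in the table, 7.15% held the E-box, 1.06% a D-box and 16.3% AGGTCA. The windows of Dbp, Hlf, Usp2 and Rora held none of these letters, and no member window held a D-box.

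**Figure D1:**
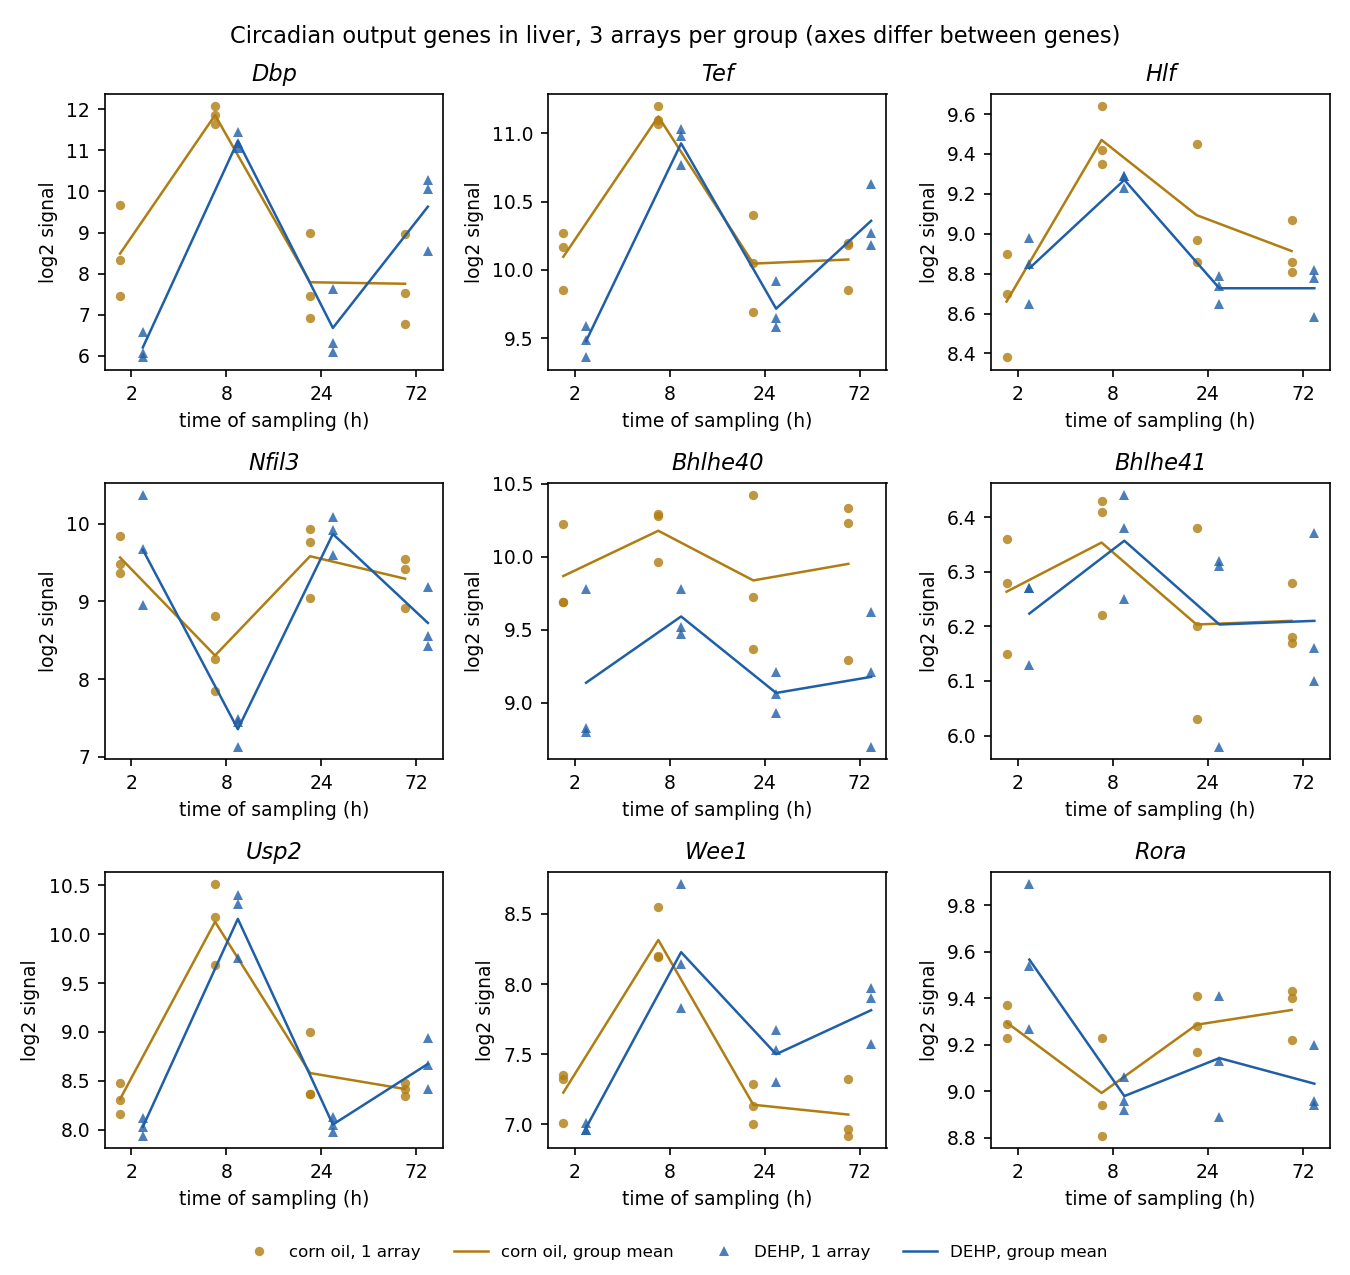
Log2 signal of the 9 genes (vertical axes, a separate range for each gene) at the 4 sampling times (horizontal axis, evenly spaced), with 1 point per array and lines through the group means, corn oil in ochre circles and DEHP in blue triangles. The means of Dbp, Tef, Hlf, Bhlhe40, Bhlhe41, Usp2 and Wee1 are highest at 8 h under both compounds. Those of Nfil3 and Rora are lowest at 8 h under both, and Bhlhe40 has a lower DEHP mean at every time.

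In corn oil livers the members were tested for any difference over the 4 times with a limma F test adjusted over all genes, and those with an adjusted p under 0.05 were called. The test called 6 of 9 members, Dbp, Tef, Hlf, Nfil3, Usp2 and Wee1, where it called 3.55% of all genes (16.7% had an unadjusted p under 0.05). Between 2 and 8 h, 5 members rose (2.96% of all genes) and 1 fell (1.09%), and 4.06% of all genes were called in either direction. Between 8 and 24 h, 4 members fell and 1 rose, where 2.57% of all genes were called (1.79% lower and 0.78% higher). Arrays of 2 and 8 h did not overlap for 7 of 9 members (18.5% of all genes), and those of 8 and 24 h for 5 of 9 (14.7%). The 7 with an unadjusted p under 0.05 in each step compare with 15.6% and 13.3% of all genes. The median difference of the 9 members was 0.81 from 2 to 8 h and -0.38 from 8 to 24 h, against 0.01 and -0.03 over all genes. These comparisons share the 8 h corn oil arrays, so the rise and the fall are not separate evidence. The acute phase list moved beside them: 2 of its 7 measured genes were also higher at 8 than at 2 h, with group means from 9.99 to 12.01 over the list, and its part in the members' values was not tested.

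Dbp, the PAR bZip factor known for the deepest rhythm of the family, had signals of 8.34, 7.45 and 9.67 in the 3 corn oil arrays at 2 h and 11.64, 12.08 and 11.86 at 8 h. At 24 h it read 7.45, 6.92 and 9.0, and at 72 h 8.96, 7.52 and 6.78. All 3 arrays of 8 h lay above every other corn oil array, and the arrays of the other 3 times were spread widely and overlapped. The rise from 2 to 8 h was 3.37 ± 0.57 on the log2 scale (SE, n = 3 arrays a group, 10.3-fold, limma adjusted p = 0.00118), and the fall from 8 to 24 h was -4.07 ± 0.57 (16.8-fold, adjusted p = 0.000184).

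Tef, its relative, read 10.17, 9.85 and 10.27 at 2 h, 11.10, 11.07 and 11.20 at 8 h, 10.05, 9.69 and 10.40 at 24 h and 10.20, 10.18 and 9.85 at 72 h. The 8 h arrays were again above all others. Tef rose by 1.03 ± 0.15 from 2 to 8 h (adjusted p = 0.000382) and fell by 1.08 from 8 to 24 h (SE 0.15, adjusted p = 0.00021). Both calls rest on the brightest of its 3 probe sets: with the mean of all 3 the differences were 0.46 (adjusted p = 0.25) and -0.46 (adjusted p = 0.276), and the F test gave 0.212.

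Hlf, the third PAR bZip factor, had a smaller rise. Its corn oil arrays read 8.70, 8.38 and 8.90 at 2 h and 9.64, 9.35 and 9.42 at 8 h, without overlap. At 24 h they read 8.97, 8.86 and 9.45, the last of them among the 8 h values. Hlf rose by 0.81 ± 0.14 from 2 to 8 h (adjusted p = 0.00131). From 8 to 24 h the difference was -0.38 ± 0.14 (adjusted p = 0.188), and it was called without corn oil 24 h replicate 3 (-0.56, adjusted p = 0.0192). With the Actb 3' to 5' difference as a covariate the F test no longer called Hlf (adjusted p = 0.0714).

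Nfil3, the repressor at D-boxes, moved the other way. It read 9.48, 9.85 and 9.37 at 2 h, 8.81, 8.26 and 7.84 at 8 h, 9.94, 9.77 and 9.04 at 24 h and 8.91, 9.42 and 9.55 at 72 h. The 8 h arrays were below every other corn oil array. Nfil3 fell by 1.26 from 2 to 8 h (SE 0.30, adjusted p = 0.016) and rose by 1.28 ± 0.30 from 8 to 24 h (adjusted p = 0.0196). Its 3 calls were lost in several alternatives. The fall was lost without corn oil 2 h replicate 1 (adjusted p = 0.0501) or 2 (0.0691) or without 8 h replicate 2 (0.0606) or 3 (0.083). The later rise was lost without 8 h replicate 2 (0.0726) or 3 (0.0989) or without 24 h replicate 1 (0.141) or 2 (0.0783). Its F test (adjusted p = 0.0282) was lost without 8 h replicate 2 (0.127) or 3 (0.167) or 24 h replicate 1 (0.0529). Without both arrays numbered 14 the fall was -1.03 (adjusted p = 0.0895) and the rise 1.05 (0.106), and the F test gave 0.176. Without corn oil 8 h replicate 2 and 72 h replicate 1, the arrays of high Actb difference and of high immediate-early genes, the fall was -1.24 (0.054), which leaves 5 members called from 2 to 8 h, the rise was 1.26 (0.0621) and the F test gave 0.0987. With the Actb difference as a covariate the fall was -1.32 (0.116) and the rise 1.33 (0.0958), and the F test gave 0.193. A variance trend with robust estimation lost the F test (0.0796) and the rise (0.0509).

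Usp2 had the smallest p of the members. It read 8.30, 8.16 and 8.48 at 2 h, 10.18, 10.51 and 9.69 at 8 h, 8.37, 8.37 and 9.0 at 24 h and 8.48, 8.42 and 8.35 at 72 h. No array of another time reached the 8 h arrays. Usp2 rose by 1.81 ± 0.19 (3.51-fold, adjusted p = 8.76e-06) and fell by 1.54 (SE 0.19, 2.92-fold, adjusted p = 5.57e-05).

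Wee1 read 7.35, 7.01 and 7.32 at 2 h, 8.19, 8.20 and 8.55 at 8 h, 7.13, 7.29 and 7.00 at 24 h and 7.32, 6.97 and 6.92 at 72 h. Its 8 h arrays stood clear of all others in corn oil. It rose by 1.09 ± 0.17 (2.12-fold, adjusted p = 0.000591) and fell by 1.17 (SE 0.17, 2.25-fold, adjusted p = 0.000271). The calls of Dbp, Tef, Usp2 and Wee1 in both steps, and of Hlf in the first, held in each of the 6 fits that left out 1 array of the groups compared, and without the array of high Actb difference together with the 72 h array of high immediate-early genes.

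The 3 remaining members were not called between times. Bhlhe40, known as Dec1, read 9.69, 9.69 and 10.22 at 2 h and 10.28, 9.96 and 10.29 at 8 h, and its 24 h arrays spanned 9.37 to 10.42. All corn oil groups of Bhlhe40 overlapped (F test adjusted p = 0.844). Bhlhe41, known as Dec2, stayed between 6.03 and 6.43 in corn oil (adjusted p = 0.739), and its mean signal of 6.25 lay at the 28.3rd percentile of genes, so its probe set may read little above background. Rora read 9.37, 9.29 and 9.23 at 2 h and 8.81, 8.94 and 9.23 at 8 h, with a difference of -0.31 ± 0.14 (adjusted p = 0.284).

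Between 24 and 2 h, limma called 0 of 9 members in corn oil, where 0.011% of all genes were called, and 1 member, Hlf, had an unadjusted p under 0.05 (0.43 ± 0.14, adjusted p = 0.37), where 7.67% of all genes had. Between 72 and 24 h it called 0 of 9 (0.011% of all genes), and 0 had an unadjusted p under 0.05 (8.68% of all genes). In both comparisons the arrays overlapped for 9 of 9 members, where 10.4% and 11% of all genes did not overlap. The interval of the 72 minus 24 h difference ran from -0.29 to 0.35 for Tef and from -0.43 to 0.28 for Wee1, but from -1.22 to 1.15 for Dbp, whose arrays vary more (pooled SD 0.82, against 0.13 to 0.42 for the other members).

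**Figure D2:**
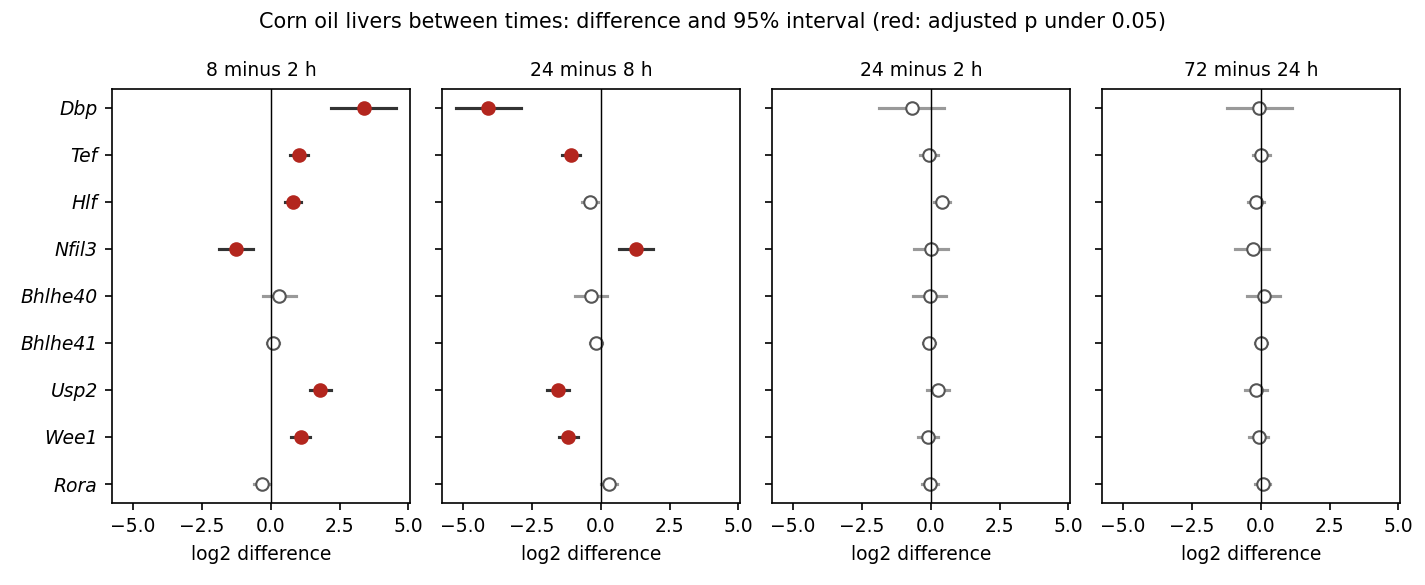
Log2 difference between corn oil groups (horizontal axis, the same in all panels) for each member, with the 95% interval of the fit and filled red points where the adjusted p was under 0.05. From 2 to 8 h Dbp, Tef, Hlf, Usp2 and Wee1 are filled above 0 and Nfil3 below, from 8 to 24 h Dbp, Tef, Usp2 and Wee1 are filled below 0 and Nfil3 above, and no point is filled in the other panels.

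In corn oil, 4.06% of all genes were called from 2 to 8 h and 2.57% from 8 to 24 h. Of the core clock list, 16 of 18 genes were measured. In corn oil, 5 rose and 3 fell from 2 to 8 h, with a median of -0.02 over the list. The largest were Per3, a repressor (1.38 ± 0.18), the activators Arntl (-1.27 ± 0.20) and Clock (-0.93 ± 0.15), the receptor Nr1d2 (0.72 ± 0.20), the repressor Ciart (0.70 ± 0.13) and the receptor Nr1d1 (-0.67 ± 0.16). That count of 8 was 5 without corn oil 2 h replicate 1, without 8 h replicate 1 or without 8 h replicate 2, 5 without both doubted arrays (those of high Actb difference and high immediate-early genes), and 3 with the Actb difference as a covariate. From 8 to 24 h 2 rose, Arntl (1.45 ± 0.20) and Clock (1.13 ± 0.15), and 4 fell, led by Per3 (-1.48 ± 0.18). Of 6 measured genes of the PAR bZip list (liver genes known to depend on these factors, from a list of 9), 1 rose from 2 to 8 h, Nr1i3, the receptor CAR (0.86 ± 0.17), and 0 were called from 8 to 24 h, where 1 was called without corn oil 24 h replicate 3. The count from 2 to 8 h was 2 without corn oil 2 h replicate 2. Other rhythmic liver genes, 15 of 15 measured, had 3 higher and 6 lower from 2 to 8 h, among them Elovl3, a fatty acid elongase (-1.75 ± 0.33), Cdkn1a, which restrains the cell cycle (-1.74 ± 0.21), and Noct, a clock-driven gene of metabolism (1.30 ± 0.31). From 8 to 24 h, 4 were higher and 2 lower, and that count of 6 was 3 without corn oil 8 h replicate 3 or 24 h replicate 1 or 2.

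The DEHP comparisons ask whether the compound shifted these genes at each time, each against the corn oil arrays of the same time. At 2 h, limma called 0 of 9 members, where 0.83% of all genes were called, and 3 had an unadjusted p under 0.05 (8.43% of all genes). The smallest p-values were those of the PAR bZip factors Dbp and Tef. In DEHP livers Dbp read 6.06, 6.59 and 5.96, all below the lowest corn oil array (7.45), a difference of -2.28 ± 0.57 (95% interval -3.47 to -1.10, adjusted p = 0.0646). Tef read 9.36, 9.49 and 9.59, again all below corn oil, a difference of -0.61 ± 0.15 (adjusted p = 0.0646). Without corn oil 2 h replicate 2, the lowest control for both genes, both were called (Dbp -2.80, adjusted p = 0.0308; Tef -0.74, adjusted p = 0.0381), and the 6 arrays of that time alone also called Dbp (adjusted p = 0.0469). Dbp was also called without both doubted arrays (0.0406), and Tef among the genes above the 40th percentile of signal (0.0482). In the other fits without 1 array neither was called. Adjusted p there reached 0.34 for Dbp (-1.69, without corn oil 2 h replicate 3) and 0.357 for Tef (-0.56, without DEHP 2 h replicate 1). A variance trend with robust estimation gave 0.203 for Dbp, and the mean of all probe sets 0.189 for Tef. Bhlhe40 was at -0.73 ± 0.29 (adjusted p = 0.423), with 1 DEHP array inside the corn oil range.

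Usp2 and Wee1 also had all 3 DEHP arrays below all 3 corn oil arrays at 2 h, with small differences (-0.28 ± 0.19 and -0.25 ± 0.17). With Dbp and Tef, 4 of 9 members had groups that did not overlap, and all 4 were lower in DEHP, where 6.72% of all genes were lower without overlap and 11.4% did not overlap in either direction. The median of the 9 members was -0.25, against -0.02 over all genes. In the same arrays the acute phase genes had means of 13.64, 11.10 and 13.11 under DEHP against 9.72 to 10.46 in corn oil (1 of 7 called), and the exocrine pancreas markers means of 10.82, 7.63 and 7.59 under DEHP against 8.78, 9.62 and 7.58 in corn oil (0 called). Stellate cell markers had list means of 8.0 to 8.36 under DEHP against 8.41 to 8.52 (0 called), and 1 of 7 immediate-early genes was called higher. Their part in the members' values was not tested.

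At 8 h Dbp, Tef, Hlf, Bhlhe40, Bhlhe41, Usp2 and Wee1 had their highest mean under DEHP, as in corn oil. The difference between DEHP times was not tested. DEHP arrays of Dbp read 11.19, 11.45 and 11.05, just under the corn oil arrays, a difference of -0.63 ± 0.57 (adjusted p = 0.711). Usp2 read 10.40, 9.76 and 10.31 and Wee1 8.71, 7.83 and 8.14 under DEHP, both overlapping corn oil, with differences of 0.03 ± 0.19 and -0.08 ± 0.17. The 95% interval of Usp2 ran from -0.36 to 0.42 and that of Wee1 from -0.44 to 0.27.

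Nfil3 had the largest difference at 8 h. It read 7.45, 7.48 and 7.13 under DEHP, all below the lowest corn oil array (7.84), a difference of -0.96 ± 0.30 (95% interval -1.57 to -0.34, adjusted p = 0.0743). Without corn oil 8 h replicate 3 it was -1.19 (adjusted p = 0.0416), and without both arrays numbered 14 it was -1.25 (adjusted p = 0.0559). Other fits gave weaker evidence for Nfil3. Dropping corn oil 8 h replicate 1 left -0.70 (adjusted p = 0.272), and dropping DEHP 8 h replicate 3 left -0.85 (0.277). Adjusting for Actb gave -0.91 (0.268), and leaving out both doubted arrays gave -0.98 (0.146). Limma called 0 of 9 members at 8 h, where 4.13% of all genes were called, and Nfil3 alone had an unadjusted p under 0.05 (15.7% of all genes). Groups did not overlap for 5 of 9 members (Dbp, Tef, Hlf, Nfil3 and Bhlhe40), all lower in DEHP, where 13.1% of all genes were lower without overlap and 18.6% did not overlap at all. The member median was -0.20, against -0.02 over all genes. Immediate-early genes had list means of 6.90 to 7.03 under DEHP against 7.18 to 7.36 (0 called), and their part was not tested. From the 6 arrays of that time alone, Dbp (adjusted p = 0.0492), Nfil3 (0.049) and Bhlhe40 (0.0439) were called.

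At 24 h, limma called 0 of 9 members, where 0.297% of all genes were called, and 5 had an unadjusted p under 0.05 (8.13% of all genes): Tef, Hlf, Bhlhe40 and Usp2 below corn oil and Wee1 above. Usp2 read 8.05, 8.13 and 7.98 under DEHP, below the lowest corn oil array (8.37), a difference of -0.53 ± 0.19 (adjusted p = 0.468). Bhlhe40 read 9.06, 9.21 and 8.93 against 9.72, 9.37 and 10.42 (-0.77 ± 0.29, adjusted p = 0.48). Hlf read 8.79, 8.74 and 8.65, also all below corn oil (-0.36 ± 0.14, adjusted p = 0.493).

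Wee1 was the only member with all DEHP arrays above corn oil at 24 h (7.30, 7.67 and 7.53 against at most 7.29; 0.36 ± 0.17, adjusted p = 0.611). Dbp read 6.31, 7.62 and 6.10, overlapping corn oil (-1.12 ± 0.57, adjusted p = 0.637). Corn oil 24 h replicate 3, the highest control for Dbp, Tef, Hlf, Bhlhe40 and Usp2, set the size of these differences in part: without it they were -0.51, -0.15, -0.18, -0.48 and -0.31, none called. Its acute phase mean was 12.06 against 9.93 and 9.76, and hepatocyte markers had list means of 13.91 to 13.93 under DEHP against 13.99 to 14.03 (0 called). Groups did not overlap for 4 of 9 members, where 13.8% of all genes did not, and the member median was -0.33 against 0 over all genes.

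At 72 h Wee1 rose. Its DEHP arrays read 7.57, 7.97 and 7.90, above all 3 corn oil arrays, a difference of 0.74 ± 0.17 (1.68-fold, 95% interval 0.39 to 1.10, adjusted p = 0.0165). It was the 1 member called of 9, where limma called 4.18% of all genes and 1.13% as higher. The call was lost without corn oil 72 h replicate 2 (adjusted p = 0.0779) or 3 (0.0781) or DEHP 72 h replicate 2 (0.0852) or 3 (0.0723), with differences of 0.67 to 0.87 over the 6 such fits. The mean of the 2 Wee1 probe sets gave 0.49 (adjusted p = 0.0477), which is over 1.5 times smaller, and the second probe set alone gave 0.23 ± 0.13 (adjusted p = 0.36 over all probe sets).

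Dbp had the largest difference at 72 h, above corn oil, where its mean had been below at the other times. It read 8.56, 10.05 and 10.28 under DEHP against 8.96, 7.52 and 6.78, so the lowest DEHP array lay inside the corn oil range. The difference of 1.88 ± 0.57 (95% interval 0.69 to 3.06) had an adjusted p of 0.0622. Without corn oil 72 h replicate 1, the array of high immediate-early genes, it was 2.48 (adjusted p = 0.0168), and without DEHP 72 h replicate 1 it was 2.41 (adjusted p = 0.0348). Without corn oil 72 h replicate 2 or 3 it was smaller, at 1.76 (adjusted p = 0.19) and 1.39 (0.256). Without DEHP 72 h replicate 2 or 3 it was 1.67 (0.214) and 1.55 (0.218). A variance trend with robust estimation left it at 1.88 (0.119). The mean of both probe sets gave 1.73 (0.0452), and the fit of genes above the 40th percentile of signal also called it (0.0492). The second Dbp probe set gave 1.58 ± 0.38 and was called over all probe sets (adjusted p = 0.0333).

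Tef was at 0.29 ± 0.15 (adjusted p = 0.284) and Usp2 at 0.26 ± 0.19 (adjusted p = 0.456) at 72 h, both overlapping corn oil. Rora read 9.20, 8.96 and 8.94 under DEHP, just below the lowest corn oil array (9.22), a difference of -0.32 ± 0.14 (adjusted p = 0.19). Bhlhe40 was at -0.77 ± 0.29 (adjusted p = 0.123) and Nfil3 at -0.57 ± 0.30 (adjusted p = 0.272). Groups did not overlap for 2 of 9 members, where 28.2% of all genes did not, and 4 of 9 had an unadjusted p under 0.05, where 21.6% of all genes had. In these livers 3 of 6 macrophage markers (list means of 8.19 to 8.47 against 8.68 to 9.05) and 2 of 7 acute phase genes (9.14 to 9.26 against 10.38 to 13.46) were lower under DEHP. The 5 endothelium markers, 0 of them called, had list means of 7.50, 7.51 and 7.65 under DEHP against 7.85, 7.95 and 8.22 in corn oil. Their part in the members' values was not tested.

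**Figure D3:**
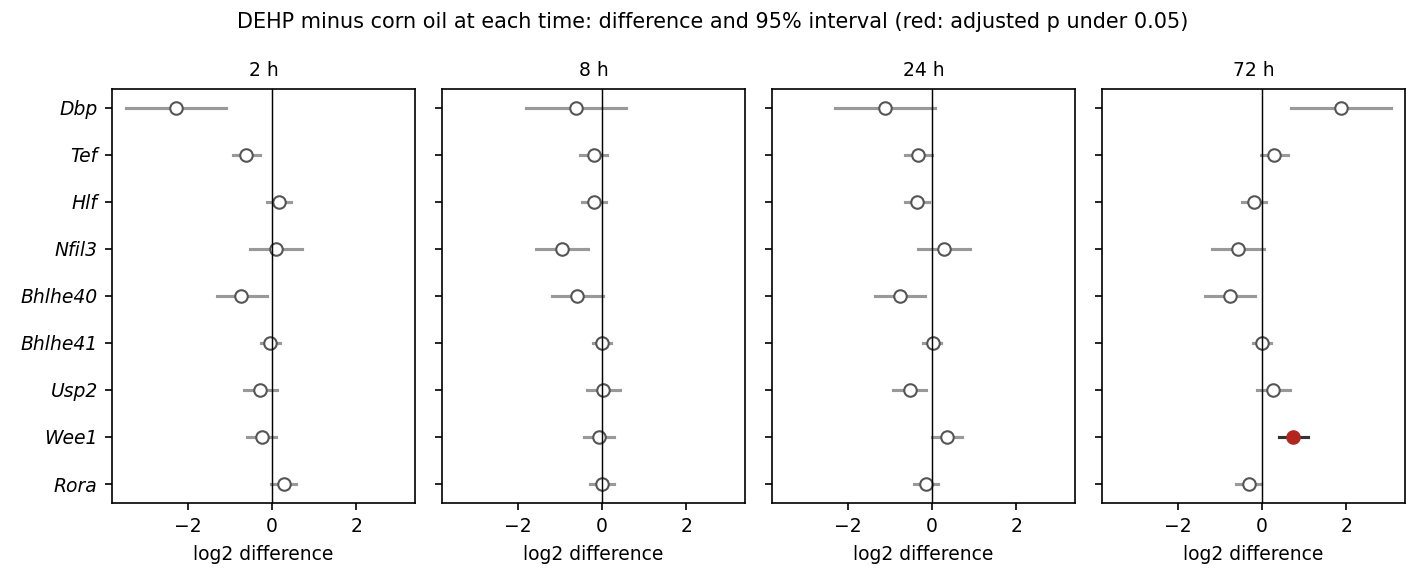
Log2 difference of DEHP minus corn oil (horizontal axis, the same in all panels) for each member at 2, 8, 24 and 72 h, with the 95% interval of the fit and a filled red point where the adjusted p was under 0.05. Wee1 at 72 h is the filled point, Dbp runs from -2.28 at 2 h to 1.88 at 72 h, and Bhlhe40 lies between -0.77 and -0.59 at all 4 times.

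Tested for a DEHP difference at any time, 4 of 9 members were called by the limma F test, where 6.46% of all genes were (7 members and 22.1% of all genes at an unadjusted p under 0.05): Dbp (adjusted p = 0.0128), Wee1 (0.0284), Tef (0.0288) and Bhlhe40 (0.0318). This test uses the same arrays as the comparisons by time and adds no samples. Bhlhe40 had much the same difference at each time (-0.73, -0.59, -0.77 and -0.77), and its call was lost in 10 of the 24 fits without 1 array, with adjusted p of 0.0526 to 0.0655 there, and without both doubted arrays (0.0532), without both arrays numbered 14 (0.0508) and with a variance trend and robust estimation (0.0788). The single arrays were DEHP 2 h replicates 1 and 3, DEHP 8 h replicates 1 and 3, DEHP 24 h replicates 1 and 3, DEHP 72 h replicates 1 and 3, and the third corn oil array of 2 h, besides the second corn oil array of 72 h. The call of Tef was lost without corn oil 2 h replicate 1 (0.0671) or 3 (0.0776) or DEHP 2 h replicate 1 (0.0735), and that of Wee1 without the same 4 arrays of 72 h as above (0.0866 to 0.0986). With the mean of all probe sets Tef (0.0889) and Wee1 (0.0661) were not called, and with the variance trend Dbp was not (0.0576). Without DEHP 2 h replicate 2 Nfil3 was called as well (0.0488). The count of 4 was 2 without corn oil 2 h replicate 3, DEHP 2 h replicate 1, corn oil 72 h replicate 2 or DEHP 72 h replicate 3.

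Whether the DEHP difference itself changed over the 4 times was tested by the interaction of compound and time. Dbp was called (adjusted p = 0.0263), 1 of 9 members, where 2.08% of all genes were called, and 6 members had an unadjusted p under 0.05 (15.2% of all genes). Its differences were -2.28, -0.63, -1.12 and 1.88 in order of time. The call was lost without DEHP 2 h replicate 1 (0.0552) or 3 (0.0538), corn oil 72 h replicate 2 (0.0758) or 3 (0.0826), or DEHP 72 h replicate 2 (0.0814) or 3 (0.0901), and with a variance trend and robust estimation (0.0907). The interaction of Wee1 had an adjusted p of 0.071 and that of Tef 0.0976. Wee1 was called without DEHP 8 h replicate 1 (0.0129) or corn oil 72 h replicate 1 (0.0405) or without both arrays numbered 14 (0.0455), and Tef without corn oil 24 h replicate 2 (0.0388) or with quantile normalization (0.0372). Between successive times limma called 0 of 9 members from 2 to 8 h, from 8 to 24 h and from 24 to 72 h, where 0.418%, 0.467% and 0.022% of all genes were called, and 1, 2 and 3 members had an unadjusted p under 0.05 (10.1%, 9.25% and 7.66% of all genes). The largest step was that of Dbp from 24 to 72 h (3.00 ± 0.81, adjusted p = 0.278).

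Under DEHP, 0.83% of all genes were called at 2 h, 4.13% at 8 h, 0.297% at 24 h and 4.18% at 72 h. Of the 16 core clock genes, 1 was called under DEHP at 2 h, the repressor Cry2 (-0.42 ± 0.08, adjusted p = 0.0093), and the call was lost without corn oil 2 h replicate 1 or 3. At 8 and 24 h 0 were called, with 1 at 24 h without corn oil 24 h replicate 2. At 72 h Nr1d1 rose (0.63 ± 0.16), and Cry1 (-0.91 ± 0.25), Arntl (-0.81 ± 0.20) and Clock (-0.55 ± 0.15) fell, with a list median of 0.04. Cry1 lay at the 15.9th percentile of genes by signal. That count of 4 was 1 without corn oil 72 h replicate 2, 2 without DEHP 72 h replicate 1, 0 without corn oil 72 h replicate 3 or DEHP 72 h replicate 2 or 3, and 2 with median centring, quantile normalization or the mean of all probe sets. Of the 6 PAR bZip dependent genes 1 rose at 8 h and 1 at 72 h, both times Cyp2b10, a drug-metabolising enzyme (5.13 ± 0.29 and 1.47 ± 0.29). The part of the PAR bZip factors in the rise of Cyp2b10 was not tested. At 2 h 0 of 6 were called, and 1 without corn oil 2 h replicate 2. At 24 h 0 were called.

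Other rhythmic liver genes under DEHP had 2 higher and 2 lower of 15 at 2 h (0.83% of all genes called) and 2 higher at 8 h (4.13%). At 24 h 0 of them were called (0.297% of all genes), and at 72 h 1 was higher and 5 were lower (4.18%). Upp2, an enzyme of uridine breakdown, fell at 2 h (-1.28 ± 0.29) and rose at 72 h (1.07 ± 0.29), and Cdkn1a rose at 2 h (1.81 ± 0.21) and fell at 72 h (-0.81 ± 0.21). The count of 4 at 2 h was 2 when the first array of either compound was left out and 1 when the last was. The count of 6 at 72 h was 2 without the second corn oil or the third DEHP array, and 3 without the third corn oil or the second DEHP array.

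Ordered by the means of all 8 groups, Dbp was highest in corn oil at 8 h (11.86 ± 0.22, SD, n = 3), then DEHP at 8 h (11.23 ± 0.20) and DEHP at 72 h (9.63 ± 0.93). These neighbours did not overlap, but DEHP at 72 h overlapped the next group, corn oil at 2 h. Below DEHP at 72 h came corn oil at 2, 24 and 72 h (8.49, 7.79 and 7.75), DEHP at 24 h (6.68) and DEHP at 2 h (6.20 ± 0.34), each overlapping the next. Tef had the same order at the top and the bottom, from 11.12 ± 0.07 to 9.48 ± 0.11. The 8 h groups of Usp2 overlapped each other (10.16 under DEHP and 10.12 in corn oil) and stood 1.45 above the next group.

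For Wee1 the order ran from corn oil and DEHP at 8 h (8.31 and 8.23) through DEHP at 72 and 24 h (7.81 and 7.50) to the corn oil groups of 2, 24 and 72 h and DEHP at 2 h (6.97 ± 0.03), with overlap between all neighbours. Nfil3 ran from DEHP at 24 h (9.87 ± 0.25) down to corn oil (8.31 ± 0.49) and DEHP (7.35 ± 0.19) at 8 h, and only the last 2 did not overlap. For Bhlhe40 all 4 corn oil means (9.84 to 10.18) were above all 4 DEHP means (9.07 to 9.59), though neighbours overlapped. Over the 4 times the means spanned 4.11 in corn oil and 5.03 under DEHP for Dbp, 1.28 and 2.52 for Nfil3, 1.81 and 2.13 for Usp2, 1.08 and 1.44 for Tef, 1.24 and 1.25 for Wee1 and 0.81 and 0.54 for Hlf, and the difference between these spans was not tested.

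Across the 24 arrays Dbp and Tef had nearly the same profile (r = 0.97), and Dbp and Nfil3 nearly opposite ones (r = -0.86). These values describe arrays that share groups, and the 8 h arrays stand apart, so r was also taken over the 18 arrays of the other times (0.92 and -0.79) and over deviations from the 8 group means (0.77 and -0.68). Corn oil 2 h replicate 3, for example, had the highest Dbp (1.18 above its group), Tef (0.17) and Hlf (0.24) and the lowest Nfil3 (-0.20) of its group. Corn oil 24 h replicate 3 likewise lay 1.21 above its group in Dbp and -0.55 from it in Nfil3. Its high acute phase mean was given above, and the part of this in its signals was not tested. Dbp and Wee1 were less alike without the 8 h arrays (0.83 over 24 arrays, 0.59 over 18). Wee1 of the DEHP arrays at 24 h lay above that of the corn oil arrays of the same time, although Dbp there was no higher. Dbp and Bhlhe40 had r = 0.53 over arrays and 0.77 over deviations.

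**Figure D4:**
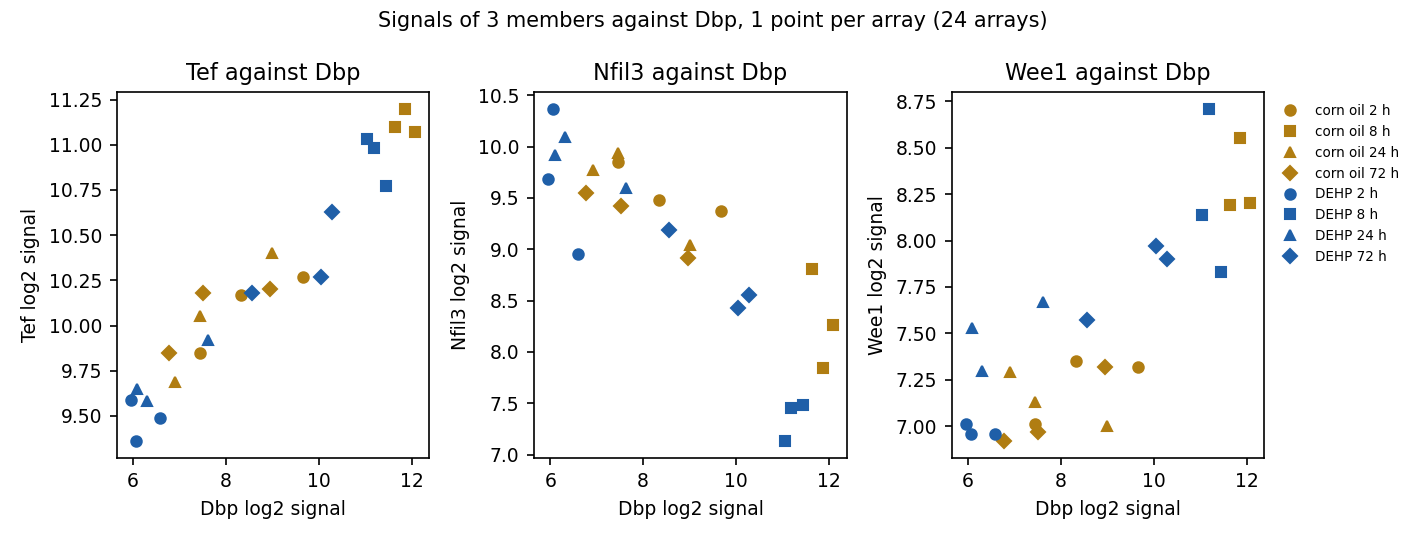
Log2 signal of Tef, Nfil3 and Wee1 (vertical axes) against that of Dbp (horizontal axes), 1 point per array, coloured by compound and shaped by time. Tef climbs with Dbp over all groups (r = 0.97), Nfil3 falls (r = -0.86), and the 6 arrays of 8 h lie at the right of each panel.

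The genes most like each member were taken by r over the 24 arrays among 10455 genes above the 40th percentile of mean signal. For Dbp they were Tef (0.97), Nr1d2 (0.94) and Per3 (0.93), and Arntl was the most opposed (-0.96). The 3 were also the first by the 8 group means, and over the 18 arrays without 8 h Tef came first again (0.92). For Tef they were Dbp, Per3 (0.96) and Nr1d2 (0.92), and Clpx was the most opposed (-0.95). For Usp2 they were Ciart (0.94), Tef (0.92) and Pcsk4 (0.92), of which Ciart and Pcsk4 were at 0.52 and 0.49 without the 8 h arrays. Clpx was also the most opposed to Usp2 (-0.94). Wee1 was most like Per3 (0.86, and 0.53 without 8 h), Fzd4 (0.85 and 0.51) and Pcsk4 (0.84 and 0.37). Without 8 h, 0 of these 3 were among its first 3. Wee1 was most opposed to Clock (-0.93, and -0.85 without 8 h).

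Nfil3 was most like Manf (0.93), Hspa5 (0.93) and Pnrc1 (0.92), at 0.80, 0.83 and 0.86 without the 8 h arrays, and most opposed to Gys2 (-0.88). Hlf was most like Nr1h4 (0.87), Bhlhe40 like Gusb (0.79), Bhlhe41 like Uck2 (0.78) and Rora like Efr3a (0.82). In the same order, the most opposed were Bok (-0.78), Aldh1a1 (-0.76), Gaa (-0.69) and Anxa7 (-0.79). For Hlf, Bhlhe40, Bhlhe41 and Usp2, 0 of the 3 genes were among the first 3 by group means.

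The array held 1 probe set for Nfil3 and Bhlhe40, 2 each for Dbp, Hlf, Bhlhe41, Usp2 and Wee1, 3 for Tef and 9 for Rora. The second probe set of Usp2 rose by 2.90 ± 0.28 from 2 to 8 h in corn oil (adjusted p = 9.5e-06 over all 45101 probe sets), and the second of Hlf by 0.92 ± 0.20 (adjusted p = 0.0157). The second of Wee1 rose by 0.56 ± 0.13 in that step (adjusted p = 0.0227), but it was also higher under DEHP at 8 h (0.53 ± 0.13, adjusted p = 0.0266), where the chosen probe set was at -0.08. For Tef the 2 others were at 0.40 and -0.04 from 2 to 8 h, not called. The 9 probe sets of Rora ranged from -0.44 to 0.21 in the same step, and 0 were called there.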

How the data were processed

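Liver RNA was measured on Affymetrix mouse arrays, each with 45101 probe sets. Values were deposited on the log2 scale after RMA by the authors, per the submitters' processing notes, whose version and build are not given in the sources used here. They ranged from 2.84 to 14.55. Probe sets were named through the platform annotation: 34958 had 1 gene symbol, 932 several, and 9211 no entry. For each of 18194 genes the probe set of highest mean signal was kept.

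A model of the 8 group means over 24 arrays was fitted with limma 3.58.1 in R 4.3.3, with empirical Bayes moderation (16 residual and 6.21 prior degrees of freedom). P-values were adjusted by Benjamini-Hochberg over all genes, and genes under 0.05 were called. The model was tested on simulated data for the 8 h comparison of DEHP with corn oil over 18194 genes, where 96% of changes of 1 and 100% of changes of 2 on the log2 scale were called. The changed genes were drawn at random, 100 for each size, with independent noise, so these rates do not hold for genes of wide spread. Dbp (pooled SD 0.82) was not called at -2.28 (2 h) or 1.88 (72 h), and Nfil3 (0.42) not at -0.96 (8 h). The lists and members were chosen with earlier results of these data known, and named genes were all members and the largest called genes of each list, up to 6. Replicate numbers gave no sign of pairing: same-numbered arrays correlated in their deviations with r of -0.35 to 0.14, and 1 of 12 pairs was above 0.1. A pairing by animal, day or batch was not tested. Marker lists of hepatocytes, endothelium, adipocytes, exocrine pancreas, neutrophils, stellate cells, lymphocytes, bile duct and erythrocytes had 0 genes called in the DEHP comparisons at each time.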

Additional observations from a re-analysis of the deposited data

Results flagged for a closer look

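The DEHP difference of Dbp differed between times: the interaction of compound and time had an adjusted p of 0.0263 (limma F test). Dbp was lower under DEHP in 3 of 3 arrays at 2 h and higher in mean at 72 h, where the groups overlapped. Neither of these differences was called (limma adjusted p = 0.0646 at 2 h and 0.0622 at 72 h). The interaction call was lost in several fits without 1 array, and with a variance trend and robust estimation (adjusted p = 0.0907).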

How the results depend on the processing

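No alternative reversed a called difference. Of the counts of called members, those in corn oil with calls stayed within 4 to 6 (over the 4 times and from 8 to 24 h) and 5 to 6 (from 2 to 8 h), those in corn oil between 24 and 2 h and between 72 and 24 h, at 24 h under DEHP and for the change of the DEHP difference between successive times at 0, and those of the other 5 DEHP comparisons moved.

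At 2 h, where 0 members were called, 1 was called with genes above the 40th percentile of signal, without both doubted arrays (chosen after seeing the data) and in a fit of just those 6 arrays, and 0 to 2 when 1 array was left out. At 8 h, where 0 were called, 1 was called with the replicate block (Nfil3, adjusted p = 0.0496) and 1 with the first against the later replicates as a block, 3 with the 6 arrays alone, and 0 to 1 when 1 array was left out. The replicate block changed no other call of a member. At 72 h, where 1 was called, the count was 2 with genes above the 40th percentile, with the mean of all probe sets and without both doubted arrays, 0 at an adjusted p under 0.01, and 0 to 2 when 1 array was left out. For a difference at any time, where 4 were called, it was 2 with the mean of all probe sets or with a variance trend and robust estimation, 0 under 0.01, and 2 to 5 when 1 array was left out. For the change of the difference over the times, where 1 was called, it was 0 with the variance trend, 2 with quantile normalization, 2 without both arrays numbered 14, 0 under 0.01, and 0 to 2 when 1 array was left out. In each case the cause was not tested. Same-numbered arrays were the best match of each other in 4 of 12 cases. No detection calls were used, so signal over background is known only through the filter on dim genes, which removed Bhlhe41 alone of the members.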
